A study of Mus musculus with 2 samples.

Results

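Receptor tyrosine kinases are single-pass membrane proteins that bind a growth factor, guidance cue or matrix protein outside the cell and signal through a tyrosine kinase domain inside it. Ligand binding pairs receptors, the pair phosphorylates tyrosines on its own tails, and adaptor proteins docked there start the RAS-MAPK and PI3K-AKT cascades. In the prostate, EGF, FGF, IGF and HGF receptors carry signals between stroma and epithelium, and RET and ALK are receptors of developing nerve cells that have been studied in neuroendocrine tumors. The 34 receptors described here are those outside the Kit class of 21887 protein-coding genes on chromosomes 1 to 19, X and Y. They were listed by name, and all 34 were found in the RefSeq table of assembly GRCm38.p6 (the mm10 assembly). For each, the ATAC-seq peaks within the gene body and 10 kb on either side, its locus, were taken. A gene-end peak overlapped the 1 kb on either side of an annotated gene end, an inner peak lay in the body away from the ends, and a flank peak lay in the rest of the locus.

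The data are 1 ATAC-seq library of C57BL/6 mouse prostate tumor cells after 2 weeks of tamoxifen (W2, the early stage) and 1 after 6 months (M6, the late stage), from a series on progression toward neuroendocrine prostate cancer. Both groups were treated with tamoxifen. The M6 assignment rests on the sample's title and treatment label, since the peak names inside its list carry the letters RC and no time, and those of the W2 list carry 2W. Not given in the sources used here were the genotype, the allele on which tamoxifen acts, the number of animals and whether cells were cultured. ATAC-seq marks open chromatin by where a transposase can insert adapters. With a single library for W2 and for M6 there is no replicate check and no test of any difference. Tags are amplified reads without molecular identifiers, so the intervals cover counting error only. The lists held 5735 peaks (W2) and 22570 peaks (M6) on these chromosomes. Their lowest summit pileups, the number of tags over a peak's summit, were 12 and 10, and their lowest local backgrounds were 2.96 and 2.65 tags. A receptor without a peak therefore had no region past the threshold of the authors' peak caller, which does not show closed chromatin. Gene-end peaks were present at 4 of 12 luminal marker genes in W2 and 5 in M6, at 0 and 6 of 12 neuroendocrine markers, at 0 of 15 endothelial markers in both, and at 0 and 1 of 12 for each of the fibroblast and leukocyte lists. Over all protein-coding genes the shares were 18.4% in W2 and 39.7% in M6, beside 41.7% of the luminal and 50% of the neuroendocrine markers in M6. Chga, Foxa2 and Neurod1 among the neuroendocrine markers, and Hoxb13 and Pbsn among the luminal ones, had no locus peak in either library.

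Few receptors had a peak at a gene end, in W2 or in M6. In W2, 2 of 34 receptors (5.88%, exact binomial 95% interval 0.720 to 19.7%) had one, against 18.4% of all protein-coding genes. In M6 there were 8 of 34 (23.5%, 10.7 to 41.2%), against 39.7%. Both intervals hold the share over all genes. Egfr was the 1 receptor with such a peak in W2 and also in M6 (2.94%, against 17.8%). Mertk was the 1 with it in W2 and not in M6 (2.94%, against 0.649%), and 7 had it in M6 and not in W2 (20.6%, against 21.9%). The last group held Erbb3, Fgfr1, Fgfr3, Insr, Ret, Alk and Ror1. The other 25 receptors lacked one at both time points (73.5%, against 59.7%). They include Erbb4, Met and Ddr1, which had an M6 peak within 1 kb of a RefSeq start site that lies inside the annotated ends. With an equal number of peaks, the 5735 of M6 with the highest −log10 q, the M6 count was 2, Erbb3 and Alk (5.88%, against 16.5%). Neither had one in W2 (4.06% of all genes had a gene-end peak in M6 alone), and the Erbb3 peak is one it shares with the end of a neighbouring gene.

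Inner peaks were found at 3 receptors in W2 (Erbb2, Insr and Tek; 8.82%, 1.86 to 23.7%, against 5.63% of all genes) and at 13 in M6 (38.2%, 22.2 to 56.4%, against 19.9%). The receptors are long genes, with a median of 82.8 kb against 17.2 kb for all protein-coding genes. By length the M6 inner share was above that of all genes in the shortest class alone. In that class too the receptors were longer, with a median of 18.7 kb against 7.5 kb. Over whole loci W2 had 10 peaks at 9 receptors (26.5%, against 29.6%) and M6 had 45 peaks at 21 receptors (61.8%, against 59.1%). The M6 count was higher at 17 receptors (50%, against 44.4%), lower at Erbb2 and Mertk (5.88%, against 1.9%), and equal but above 0 at Ddr2, Axl and Ptk7. The remaining 12 receptors had no locus peak in either library (35.3%, against 39.9%). With equal numbers of peaks, 5 receptors had an inner M6 peak (Alk, Tek, Ror1, Igf1r and Insr; 14.7%, against 6.04%) and 9 a locus peak (26.5%, against 27.4%). The M6 count was then higher at 3 (Alk, Ror1 and Igf1r; 8.82%, against 9.24%) and lower at 3 (Egfr, Erbb2 and Mertk; 8.82%, against 12.6%). Alk, Igf1r and Ror1 held 17 of the 45 M6 peaks, and 14 of the 28 inner peaks. They are among the 6 receptors over 200 kb, and all genes of that length had a mean of 3.58 M6 locus peaks. With equal numbers of peaks Alk held 2, Igf1r 1 and Ror1 1.

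**Figure D1:**
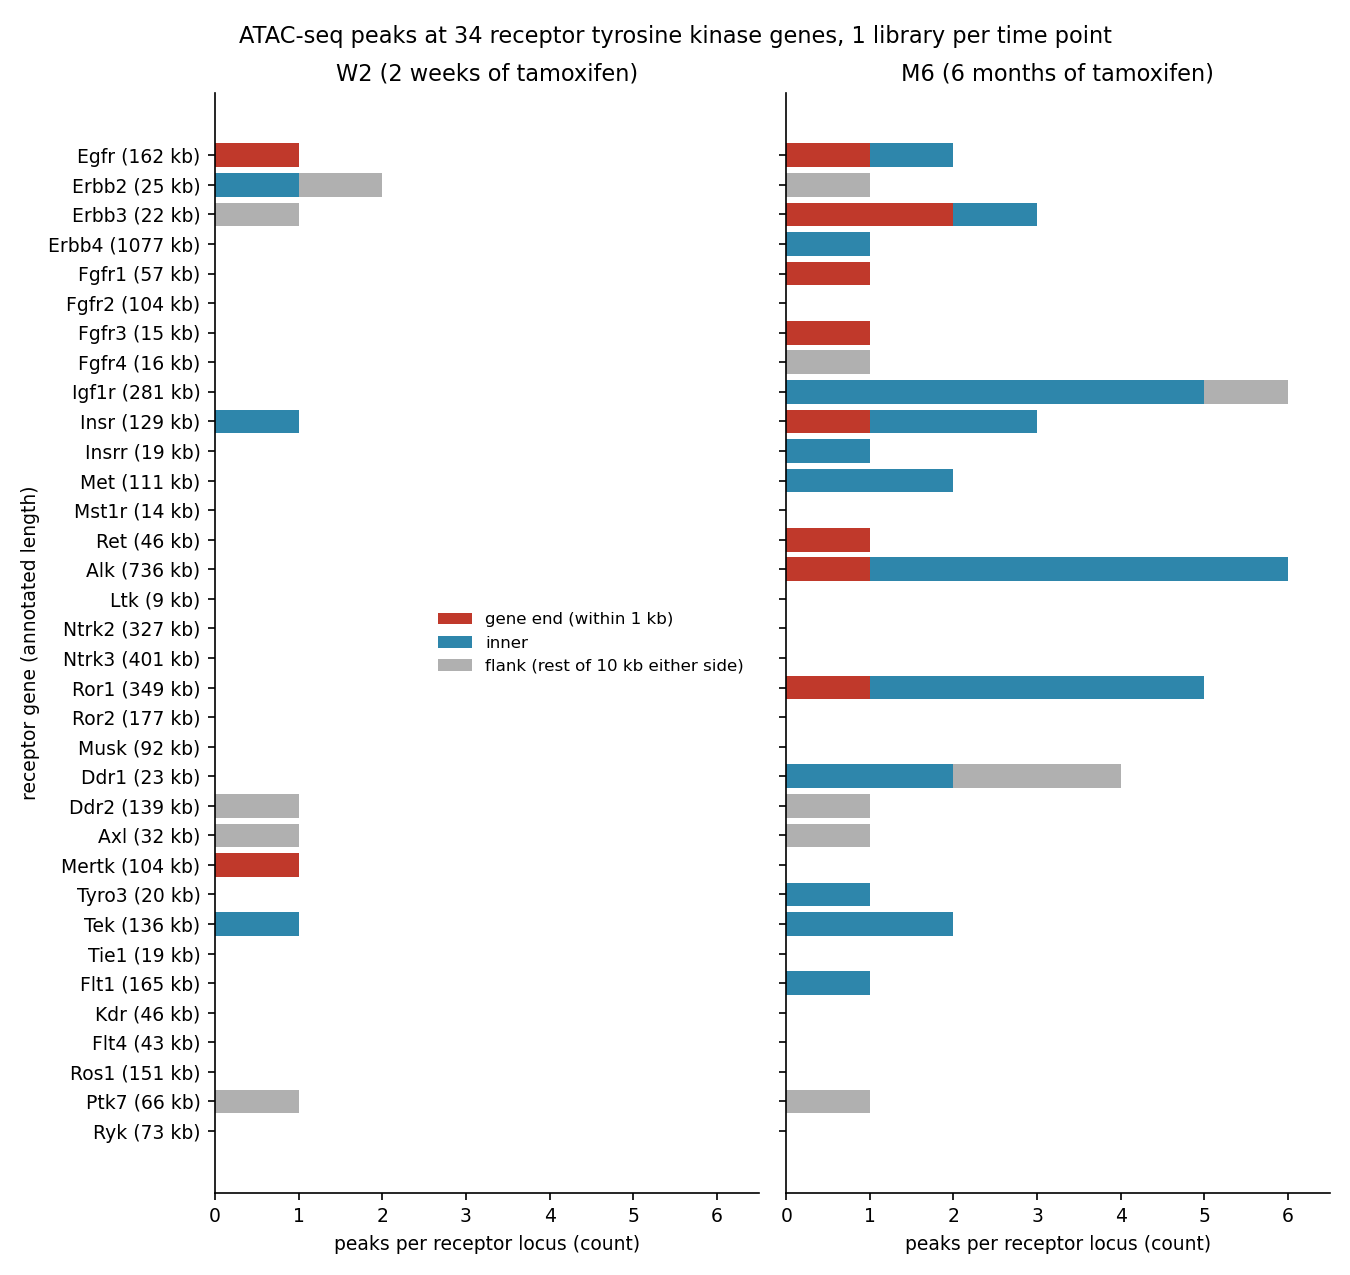
Peaks per receptor locus in W2 (left) and M6 (right), 1 library each, split into gene-end, inner and flank peaks, with the annotated gene length in kb beside each name. Alk and Igf1r reach 6 M6 peaks and Ror1 5, Mertk has its only peak in W2, and 12 receptors have none in either library.

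The start regions with a peak are shown for 4 receptors, since these are the receptors whose peak reaches into the 250 bases before a RefSeq start site. Each sequence is those 250 bases on the + strand of GRCm38.p6, 5′ to 3′, credited to RefSeq, and capitals mark the bases that lie under the deposited peak of the library named.
Egfr, chr11:16751953-16752202, capitals under the M6 peak: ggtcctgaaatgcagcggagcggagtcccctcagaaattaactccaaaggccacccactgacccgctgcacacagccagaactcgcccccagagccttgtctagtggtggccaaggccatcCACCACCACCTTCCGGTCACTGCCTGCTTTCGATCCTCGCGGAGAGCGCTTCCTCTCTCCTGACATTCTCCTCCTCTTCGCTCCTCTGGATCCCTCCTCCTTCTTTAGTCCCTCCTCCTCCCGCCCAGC
Mertk, chr2:128698665-128698914, capitals under the W2 peak: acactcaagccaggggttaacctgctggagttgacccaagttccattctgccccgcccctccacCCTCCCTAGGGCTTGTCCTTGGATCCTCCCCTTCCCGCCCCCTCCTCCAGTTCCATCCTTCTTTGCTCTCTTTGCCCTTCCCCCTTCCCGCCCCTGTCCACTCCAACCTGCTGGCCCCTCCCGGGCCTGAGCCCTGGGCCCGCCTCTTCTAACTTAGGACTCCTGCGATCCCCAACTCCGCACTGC
Ror1, chr4:100095541-100095790, capitals under the M6 peak: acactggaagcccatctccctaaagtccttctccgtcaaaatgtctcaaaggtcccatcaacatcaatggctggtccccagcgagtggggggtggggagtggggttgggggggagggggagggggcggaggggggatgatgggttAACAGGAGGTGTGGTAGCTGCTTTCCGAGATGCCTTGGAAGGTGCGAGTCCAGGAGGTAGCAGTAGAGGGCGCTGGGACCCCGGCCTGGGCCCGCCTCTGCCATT
Fgfr3, chr5:33721474-33721723, capitals under the M6 peak: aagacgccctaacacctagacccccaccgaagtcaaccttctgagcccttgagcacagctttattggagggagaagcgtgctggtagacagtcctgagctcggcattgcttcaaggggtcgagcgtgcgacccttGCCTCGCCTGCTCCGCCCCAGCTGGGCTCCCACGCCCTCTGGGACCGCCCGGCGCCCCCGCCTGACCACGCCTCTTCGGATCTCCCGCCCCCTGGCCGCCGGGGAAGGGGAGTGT
The peaks cover 129 of the 250 bases at Egfr, 186 at Mertk, 105 at Ror1 and 115 at Fgfr3. The motif GGGCGG, the GC box of SP and KLF factors, was searched on both strands. It occurred 1 time at Egfr, under the peak, 3 times at Mertk, 2 of them under the peak, 3 times at Fgfr3, all under the peak, and 1 time at Ror1, outside it.

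The ErbB receptors bind EGF-like growth factors and neuregulins. Egfr, the EGF receptor, had a W2 peak (chr11:16752514-16752713) with a pileup of 16 tags (exact Poisson 95% interval 9.15 to 26.0), a fold of 3.70 over local background and a −log10 q of 3.17. Its M6 gene-end peak (chr11:16752074-16752432) had 18 tags (10.7 to 28.4), a fold of 4.85 and a −log10 q of 6.32. The intervals of the 2 pileups overlap. The 2 peaks do not overlap but lie 81 bp apart, with summits 385 bp (W2) and 126 bp (M6) into the gene from the RefSeq start site, so Egfr was open at its start in both libraries although the sites are counted as unshared. A further M6 peak lay inside Egfr, 119 kb from the start (15 tags, −log10 q 4.28).

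Erbb2, which has no known ligand and pairs with the other ErbB receptors, had an inner W2 peak 6.59 kb from its start (chr11:98418972-98419171, 21 tags, −log10 q 6.13) and no M6 peak within 19.6 kb of that site. Its flank peak was found in both libraries, with 19 tags in W2 and 18 in M6, and lies within the neighbouring Mien1. Erbb3, a neuregulin receptor with an impaired kinase, had 3 M6 peaks. The strongest (chr10:128565838-128566586, 45 tags, −log10 q 19.5) sits at an end of the neighbouring Pa2g4 and reached the Erbb3 end window by its edge. The W2 peak at the same site (32 tags, −log10 q 12.3) fell just outside that window, so this site alone does not separate the libraries. A second M6 gene-end peak, 104 bp from the other annotated end of Erbb3 (chr10:128589622-128589908, 24 tags, −log10 q 8.10), had no W2 counterpart within 23.1 kb, and an inner peak had 19 tags. Erbb4, the other neuregulin receptor and the longest of the 34 genes at 1077 kb, had a single M6 peak (18 tags, −log10 q 4.44), which lay 0.941 kb into the gene from its RefSeq start site. It counted as inner because it did not reach the 1 kb window around the outermost annotated end.

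The insulin receptor family controls growth and glucose uptake. Igf1r, the receptor for insulin-like growth factors, had 0 W2 peaks and 6 M6 peaks, none of them at a gene end. With equal numbers of peaks it had 1 in M6. Its 5 inner peaks in the full M6 list lay from 44.4 to 177 kb from the start, with pileups of 17 to 25 tags. The strongest was the one nearest the start (chr7:67996511-67996843, −log10 q 11.4, fold 6.28). The sixth lay 6.00 kb past the far end, within Pgpep1l. The nearest W2 peak to the Igf1r gene was 192 kb away. Insr, the insulin receptor, had a peak at the same inner site in both libraries, 58.4 kb from its higher-coordinate end, with 23 tags in W2 and 25 in M6 (folds 5.77 and 6.22). In M6 it also had a gene-end peak 95 bp from that end (chr8:3279417-3279839, 21 tags, −log10 q 6.82) and a second inner peak of 16 tags. Insrr, the insulin receptor-related receptor, an alkali sensor, had 1 inner M6 peak (23 tags, −log10 q 8.77) and none in W2.

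The next receptors act mainly in neural and embryonic development. Alk, the receptor for the ALKAL cytokines, had 0 W2 peaks and 6 M6 peaks across its 736 kb. Its gene-end peak (chr17:72604566-72604938, 29 tags, fold 5.91, −log10 q 12.2) had its summit 517 bp before the RefSeq start site. Its strongest inner peak (chr17:71966515-71967111, 46 tags, −log10 q 18.8) lay 637 kb from that start, toward the far end of the gene, and the other 4 had 15 to 21 tags. The nearest W2 peak to the Alk gene was 231 kb away. Ltk, the related and much shorter gene, had no peak in either library.

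Ror1, an embryonic WNT5A receptor, had 0 W2 and 5 M6 peaks. Its peak at the start site was weak (chr4:100095686-100096300, 15 tags, −log10 q 3.88), and the strongest lay 33.0 kb into the gene (chr4:100128557-100128947, 43 tags, fold 7.86, −log10 q 22.7). The other 3 had 16 to 19 tags and lay 116 to 254 kb from the start. Fibroblasts can express Ror1. The 12 fibroblast markers had 2 locus peaks in W2 and 4 in M6, at 2 and 3 genes. Over all protein-coding genes, 29.6% had a locus peak in W2 and 59.1% in M6. The part of fibroblasts in the Ror1 peaks was not tested. Ror2, its closest relative, and Musk, the receptor kinase of the neuromuscular junction, had no locus peak in either library. Ret, the receptor for GDNF-family ligands, had 1 M6 peak, 288 bp inside its higher-coordinate end (chr6:118197318-118197573, 24 tags, fold 4.15, −log10 q 6.61), and its nearest W2 peak was 222 kb from the gene. The neurotrophin receptors Ntrk2 (327 kb) and Ntrk3 (401 kb), which bind BDNF and NT-3, had no peak in either library. Their nearest M6 peaks lay 96.5 and 202 kb outside the genes.

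**Figure D2:**
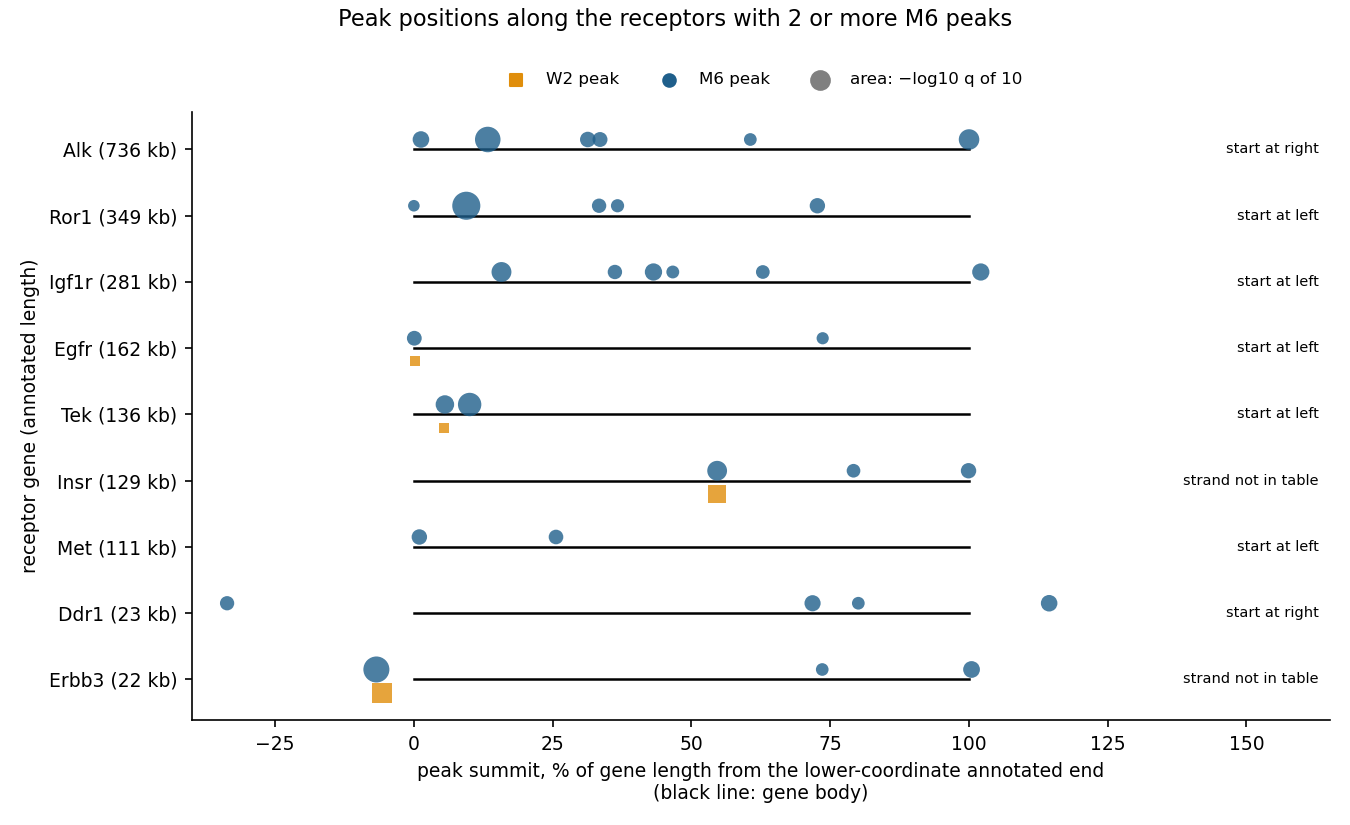
Summits of W2 (squares) and M6 (circles) peaks along the 9 receptors with 2 or more M6 peaks, in % of gene length from the lower-coordinate end, with the marker area in proportion to −log10 q. Alk, Ror1 and Igf1r have M6 peaks spread through the gene and no W2 peak, while the Insr and Tek W2 peaks sit on M6 peaks.

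Of the FGF receptors, Fgfr1 had an M6 peak with its summit 4 bp from the lower-coordinate end (chr8:25518643-25518952, 20 tags, −log10 q 7.48). Fgfr3 had an M6 peak 75 bp before its start site (chr5:33721609-33722066), the weakest at any receptor end, with 14 tags and a −log10 q of 2.76. Fgfr4 had an M6 flank peak alone (14 tags), and Fgfr2 had none in either library, with the nearest M6 peak 16.5 kb away. None of the 4 had a W2 peak. Met, the HGF receptor, had 2 M6 peaks and none in W2, whose nearest peak to the gene was 697 kb away. The Met peak chr6:17464361-17464560 (20 tags, −log10 q 6.87) counted as inner, since it missed the window around the outermost annotated end, yet its summit was 482 bp into the gene from the RefSeq start site. The other lay 27.7 kb from that start (17 tags). Mst1r, the receptor for the HGF-like protein MSP, had none in either library.

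The TAM receptors bind GAS6 and PROS1 on dying cells, and Mertk and Axl are also made by macrophages. Mertk had a W2 peak over its start site (chr2:128698729-128698951, 17 tags, 9.90 to 27.2, fold 3.96, −log10 q 3.86) and no M6 locus peak, the nearest lying 14.4 kb outside the gene. The Mertk and Egfr peaks, both under a −log10 q of 5, are the only gene-end peaks of receptors in W2. Axl had 1 flank peak in each library (23 tags in W2, 44 in M6), which sits at an end of the neighbouring Hnrnpul1. Tyro3 had 1 inner M6 peak, at 13 tags the lowest pileup among the receptor peaks. The 12 leukocyte markers had 3 locus peaks in W2 and 6 in M6, at 3 genes in each library. All were flank peaks except 1 M6 gene-end peak at Coro1a. Over all protein-coding genes, 29.6% had a locus peak in W2 and 59.1% in M6. The part of leukocytes in the Mertk peak was not tested.

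The vascular receptors are the angiopoietin and VEGF receptors. Of these 5, 2 had a locus peak in M6 (against 59.1% of all genes) and Tek alone had one in W2 (against 29.6%). Tek, the angiopoietin receptor, had an inner peak at the same site in both libraries. It had 14 tags in W2 (7.23 kb from the start, −log10 q 2.42) and 24 in M6 (7.39 kb, −log10 q 9.86). In M6 a stronger one followed, 13.4 kb from the start (chr4:94752542-94752995, 34 tags, fold 6.63, −log10 q 15.8), and had no W2 counterpart within 5.87 kb. Flt1, a VEGF receptor, had 1 inner M6 peak (15 tags, −log10 q 3.78). Kdr and Flt4, the main VEGF receptors of blood and lymph vessels, and Tie1 had no locus peak in either library. The 15 endothelial markers had 1 W2 and 11 M6 locus peaks, at 1 and 6 genes, led by Vwf (1 in W2, 4 in M6), Pecam1 and Ecscr (0 in W2, 2 in M6 each). The Pecam1 peaks were inner peaks, and those of Ecscr were flank peaks outside the gene. Of the 15 markers, 9 had 0 in both, Cdh5, Cldn5, Emcn and Esam among them. Over all protein-coding genes 39.9% had 0 in both, as did 50.5% of genes of up to 25 kb. The median length of the markers was 14.1 kb. Whether endothelial cells contributed to the Tek peaks was not tested, and in bulk samples fewer cells of a type and less open chromatin per cell cannot be told apart.

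Ddr1, an epithelial collagen receptor, had 0 W2 and 4 M6 peaks in a gene of 23.2 kb, the highest rate among the 34 (9.26 peaks per 100 kb of locus). Its 2 inner peaks (33 and 30 tags) stood on the highest local backgrounds at any receptor, 8.26 and 9.48 tags against an M6 median of 3.52, and had folds of 3.67 and 2.96, the latter the lowest at a receptor. The summit of the second lay 467 bp from one of 4 RefSeq start sites of Ddr1. Of its 2 flank peaks, 1 of 17 tags sits at an end of the neighbouring Gtf2h4, and the other had 26 tags. Ddr2, the collagen receptor of mesenchymal cells, had 1 flank peak in each library, the strongest at any receptor locus (39 tags in W2, 49 in M6), at an end of Hsd17b7. Ptk7, a kinase-inactive WNT co-receptor, had 1 flank peak in each (35 and 47 tags), within the body of Srf. Ryk, the other kinase-inactive WNT receptor, and Ros1 had none in either library.

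Sites were compared between the lists, of which the M6 list is the longer. Of its 45 receptor peaks, 38 had no W2 counterpart, and 7 (15.6%, 6.49 to 29.5%) overlapped a W2 peak by at least 1 bp, against 20.2% of all M6 peaks. In the other direction 7 of 10 W2 peaks (70.0%, 34.8 to 93.3%) overlapped an M6 peak, against 80.5% of all W2 peaks. The 3 without a counterpart were those of Egfr, Erbb2 and Mertk. With equal numbers of peaks, 5 of 10 M6 peaks at receptor loci overlapped a W2 peak (50%, 18.7 to 81.3%), against 50.5% of all M6 peaks then used. Of the 7 shared sites, 2 lay inside the receptor gene (Insr and Tek), 3 at the end of another gene (Erbb3, Ddr2 and Axl) and 2 within another gene's body (Erbb2 and Ptk7). The median −log10 q at receptor loci was 6.20 for W2 peaks and 6.81 for M6 peaks, against 6.30 and 6.92 over all peaks.

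At the shared sites the pileup was higher in M6 at 6 of 7, with Erbb2 the exception. Pileups are tag counts that were not scaled to the total reads of each library. The difference was largest at Axl (log2 M6 over W2 of 0.94) and Tek (0.78), followed by Erbb3 (0.49), Ptk7 (0.43), Ddr2 (0.33) and Insr (0.12), and at Erbb2 it was −0.08. The median of 0.43 compares with 0.55 over all 4618 shared sites, of which 85.8% were higher in M6. The Poisson intervals of the W2 and M6 pileups overlapped at all 7 sites. Local background was also higher in M6 at each of these 7 sites, with 4.58 tags in W2 and 6.26 in M6 at Erbb3. Fold over local background was higher in M6 at 6 of 7, against 76.5% of all shared sites. At Axl the fold was 4.20 in W2 and 5.86 in M6, and the background 4.72 and 6.68 tags.

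**Figure D3:**
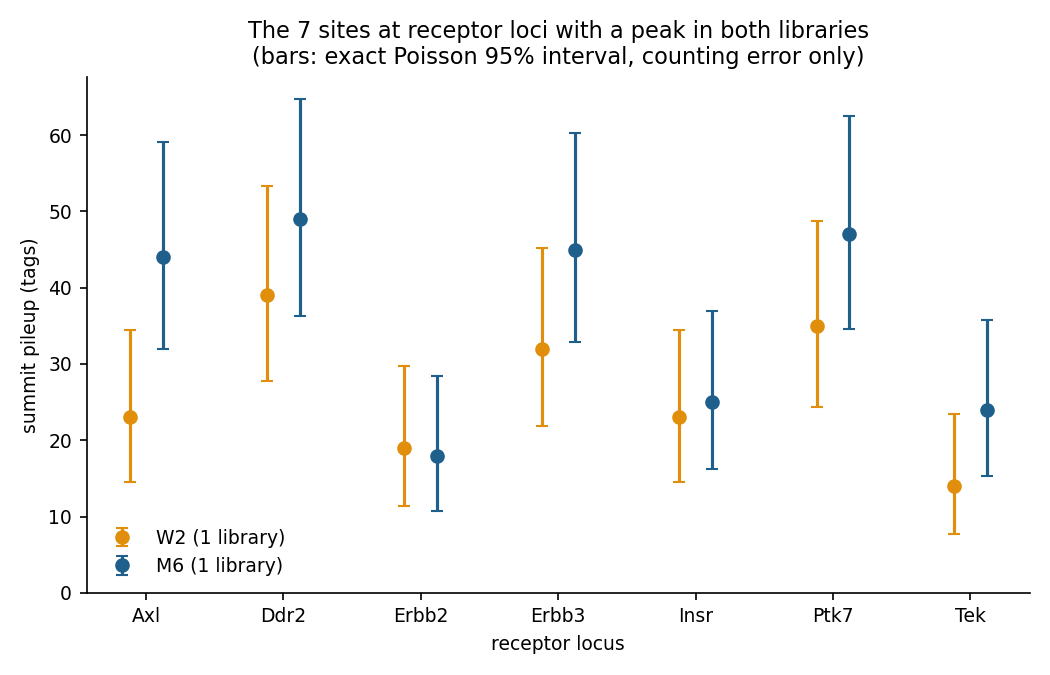
Summit pileup in tags, not scaled to total reads, at the 7 receptor-locus sites with a peak in both libraries, 1 library each, with exact Poisson 95% intervals. M6 is above W2 at all sites except Erbb2 (19 and 18 tags), and the intervals of each pair overlap.

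Over all genes, longer genes had more M6 peaks. Spearman's rho between gene length and M6 locus peaks was 0.40 over the 21887 genes and 0.19 over the 34 receptors, given as a description, since loci of neighbouring genes share peaks. Of the 9 receptors of up to 25 kb, 6 had an M6 locus peak (against 48.5% of genes of that length), of the 8 of 25 to 75 kb 5 (71.2%), of the 11 of 75 to 200 kb 6 (80.4%), and of the 6 over 200 kb 4 (85.9%). Inner M6 peaks were found at 4 of 9, 0 of 8, 5 of 11 and 4 of 6 receptors in these classes, against 6.5%, 27%, 54.7% and 78.8% of genes. The share was above that of all genes in the shortest class alone, where the 4 receptors were Ddr1, Erbb3, Insrr and Tyro3. Lengths were not matched within that class, whose median was 18.7 kb for the receptors and 7.5 kb for all genes. The higher share there is therefore not one at equal length. Gene-end M6 peaks were at 2 receptors in each class, against 33.9%, 49.5%, 48.8% and 42.7% of genes.

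Counted per 100 kb of locus, receptors had 0.767 M6 peaks against 1.61 over all genes, and 0.170 against 0.523 in W2. Within classes the M6 rates were 3.26 against 2.57 up to 25 kb, 0.911 against 1.89 from 25 to 75 kb, 0.652 against 1.30 from 75 to 200 kb and 0.547 against 0.800 over 200 kb. The 6 longest receptors ranged widely. Igf1r had 1.99 M6 peaks per 100 kb, Ror1 1.35, Alk 0.794, Erbb4 0.0912, and Ntrk2 and Ntrk3 had none. Over all genes of over 200 kb the rate was 0.800, and the median count per gene was 3 M6 locus peaks.

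**Figure D4:**
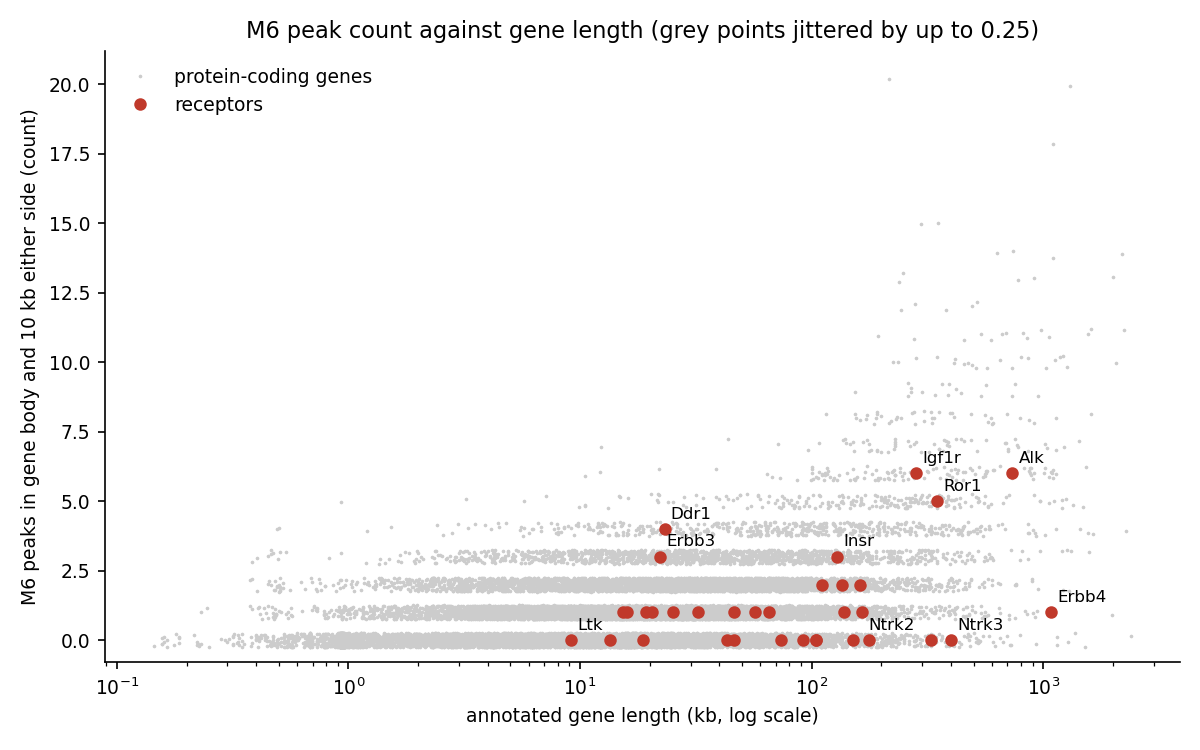
M6 peaks in the gene body and 10 kb on either side against annotated gene length (log scale) for all 21887 protein-coding genes (grey, jittered) and the 34 receptors (red). Erbb4, Ntrk2 and Ntrk3 lie at 0 or 1 peak although they are longer than 200 kb, where Igf1r and Alk have 6 and Ror1 has 5.

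Receptor promoters had a higher median GC content and CpG count than those of all protein-coding genes. The RefSeq promoter table (GRCm38.p6, 250 bases before to 50 after a start site) held 33 promoters of 28 receptors, and Erbb3, Fgfr1, Insr, Insrr, Ret and Ntrk3 had no entry. Their median GC content was 62.3% (39.0 to 77.7%) with a median of 19 CpG per 300 bases (2 to 48), against 56.3% and 13 for 21263 promoters of protein-coding genes. Within 1 kb of such a start site, 2 of 28 receptors had a W2 peak (7.14%, 0.877 to 23.5%, against 19.9% of 17492 genes) and 7 an M6 peak (25%, 10.7 to 44.9%, against 42.3%), and both intervals hold the share over all genes. The M6 receptors were Alk, Ddr1, Egfr, Erbb4, Fgfr3, Met and Ror1, so Ddr1, Erbb4 and Met joined those counted at annotated ends.

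CpG-rich receptor promoters were found with and without a peak. Igf1r (48 CpG), Ryk (42), Ror2 (32), Tyro3 (31) and Flt1 (29) had no peak within 1 kb of the start site in either library, while Ddr1 (39 at 1 of its start sites) and Met (34) had one in M6. Ror1, with 10 CpG, and Egfr, with 15, also had one in M6. The 8 receptor promoters near an M6 peak had a median of 27 CpG and the other 25 one of 14, against 23 and 5 over protein-coding genes. GGGCGG (either strand) was present in 23 of 33 receptor promoters (69.7%), against 46.2% of promoters of protein-coding genes. CCAAT (either strand) was in 5 (15.2%, against 38.2%), the AP-1 site TGANTCA (either strand) in 3 (9.09%, against 6.99%), the ETS site CCGGAAG (either strand) in 2 (6.06%, against 11.6%) and TATAAA (either strand) in 3 (9.09%, against 12.6%). No motif of the 5 contains another, and a match describes the sequence only.

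The other genes of the pathway were counted in the same way. Their median lengths were 31.4 kb (ligands and co-receptors), 59.6 kb (cascade) and 48.6 kb (inhibitors). Of 72 ligand and co-receptor genes, an end peak was found at 1 in W2 (1.39%, against 18.4% of all genes) and at 14 in M6 (19.4%, against 39.7%), and the median gene had as many locus peaks in M6 as in W2. The strongest of the 13 M6-only ends were at Fgf14 (−log10 q 10.1) and Fgf12 (9.81), intracellular FGF relatives that bind sodium channels, Btc (9.38) and Tgfa (8.11), ligands of EGFR, and Nrp1 (6.41), a co-receptor for VEGF. Fgf11 had one at both time points (−log10 q 13.5 for W2, 22.4 for M6), which it shares with Chrnb1.

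Genes downstream of the receptors are read against the same shares, 18.4% of all genes in W2 and 39.7% in M6. Of 46 genes of the adaptors and the RAS-MAPK and PI3K cascade, 8 had one in W2 (17.4%) and 32 in M6 (69.6%), and no gene had one in W2 alone. M6-only peaks were found at Crk, an adaptor (−log10 q 18.7), Map2k2, the kinase MEK2 (15.7), Irs2, the insulin receptor substrate (12.3), and Gab1, a docking protein (10.7). Among the 8 in both libraries, Map2k1 had 24 tags in W2 and 45 in M6, Pik3ca, a catalytic subunit of PI3K, 29 and 34, and Shc1, an adaptor whose peak is shared with Cks1b, 25 and 36. Among 29 genes of feedback inhibition and receptor turnover there were 12 with one in W2 (41.4%) and 23 with one at M6 (79.3%). M6-only peaks were strongest at Ptpn2, a tyrosine phosphatase (−log10 q 10.9), Eps15, an endocytic adaptor (6.78), Socs5, a suppressor of cytokine signalling (6.52), Spry2, a Sprouty inhibitor (6.00), and Cblc, a ubiquitin ligase (5.89). Lrig2 (22 tags in W2, 49 in M6), Cblb (41 and 54) and Dusp5, a nuclear dual-specificity phosphatase (24 and 41), had one in both. The median gene of both lists had 1 more locus peak in M6 than in W2.

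**Figure D5:**
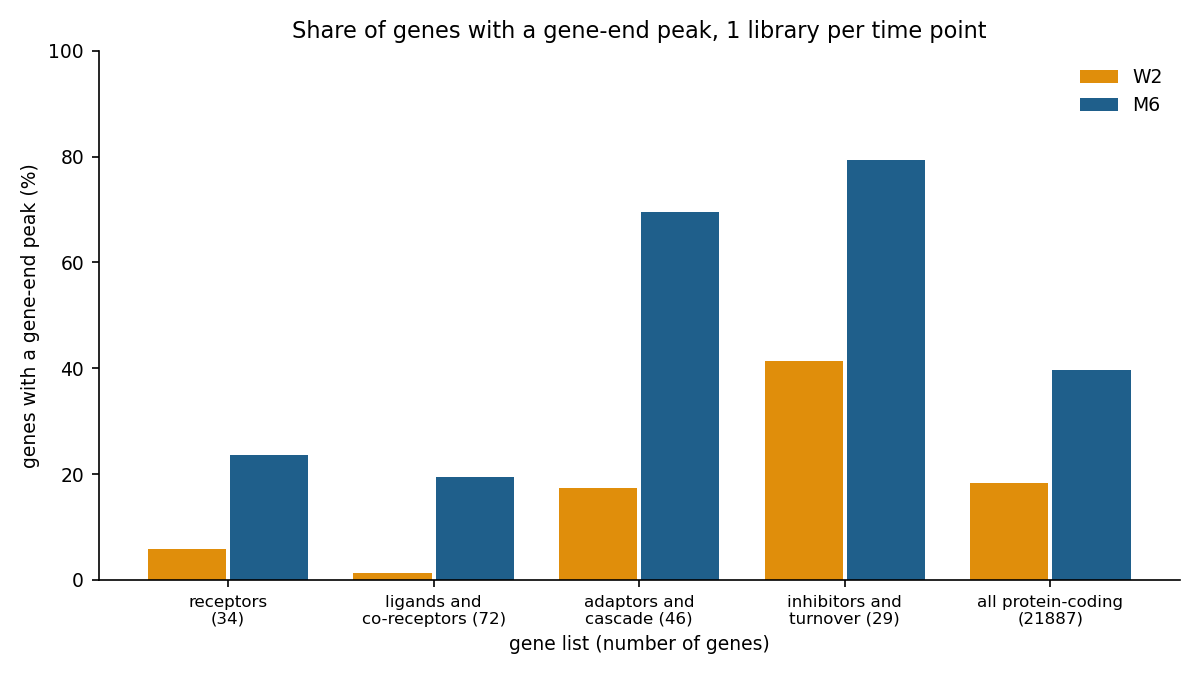
Share of genes (%) that have a gene-end peak, for W2 and M6, 1 library each, for the 34 receptors, 3 lists of other pathway genes and all protein-coding genes. Receptors (5.88% and 23.5%) and ligands (1.39% and 19.4%) are below all genes (18.4% and 39.7%) in both libraries. The inhibitor list is above all genes in both (41.4% and 79.3%), and the cascade list in M6 (69.6%) but not in W2 (17.4%).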

How the data were processed

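Build mm10 and the tools Bowtie2, deepTools, SAMtools 1.4 and Trim Galore 0.5.0 come from the submitters' processing notes, which give no role or order. Peak caller and threshold: not given in the sources used here. For each library the authors deposited 1 peak list, not pooled, with an interval, a score, a fold (a linear ratio of the summit over local background), a −log10 p, a −log10 q and a summit per peak. The deposited score follows the −log10 q and was not used. These values are the authors' own and describe or rank peaks within a list. Peaks on other sequences (30 in W2, 24 in M6) were left out.

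The pileup and local background were computed from the fold, read as (pileup + 1)/(background + 1), and the p, read as a Poisson upper tail, and came out whole within 0.001 of the −log10 p for 100% of peaks. The windows and this step were tested on simulated data. The total number of reads was not used here, so the precision of a peak is that of its pileup. Overlap meant at least 1 bp. Gene ends, without strand or exons, came from RefSeq GRCm38.p6, and start sites and strand from its promoter table. Shares carry exact (Clopper-Pearson) intervals. With 1 library per time point no test was run. Python 3.11.15, pandas 2.3.3 and scipy 1.17.1 were used.

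The receptors, pathway lists and markers were chosen with earlier results of these data known. All receptors were accounted for, every receptor gene-end peak and the strongest inner peaks are given, and pathway genes were named by the highest −log10 q (5 in M6 only, 3 in both); some items are not reported here. Alternatives were equal peak numbers, a −log10 q of at least 5, and other windows, flanks and overlaps.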

Additional observations from a re-analysis of the deposited data

How the results depend on the processing

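The number of M6 peaks at receptor loci depended on how many M6 peaks were used. With equal numbers ranked by −log10 q, M6 had 10 peaks at the 34 loci in place of 45, and 11 when ranked by fold. Receptors with an inner M6 peak then numbered 5 under either ranking in place of 13, and those with a gene-end M6 peak 2 in place of 8, both without a W2 gene-end peak (2 in place of 7). With a −log10 q of at least 5, no receptor kept a W2 gene-end peak (0 in place of 2), against 14.3% of all genes. At that setting 8 receptors had an inner M6 peak, for which the share over all genes is not given here. A gene-end window of 2 kb gave 5 receptors with a W2 gene-end peak (14.7%, against 20.0% of all genes). A flank of 25 kb gave 18 W2 locus peaks in place of 10. The other 60 recomputed values stayed within 1.5 times the reported count, among them both overlap counts, which stayed at 7 under other overlap rules and were 5 with equal numbers. Some of the 60 could not change by design, so their number does not measure stability. These were W2 peak and receptor counts at equal numbers, gene-end and inner counts under other flanks, and locus totals under other end windows. Alternatives that counted overlaps at equal numbers, used promoter-table start sites, left out peaks at other genes' ends or required a pileup of at least 12 were chosen after the data were seen. No paired analysis was possible because each time point has 1 library.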
